A study of Mus musculus with 6 samples.

Results

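The clotting factors, the fibrinolytic proteins and the lectin, alternative and terminal complement components are mostly plasma proteins made by hepatocytes. Here 41 of their genes were examined. They were picked by role, with earlier results of these data known, and were matched to Ensembl identifiers in the GENCODE annotation of mouse GRCm38. They are 41 of the 55487 genes in the deposited tables. All 41 had enough reads to be tested, among 13296 genes in all. They comprise 3 fibrinogen chains, 7 genes of the clotting cascade, 5 of the contact system, 5 anticoagulants, 5 fibrinolysis genes, 5 lectin-pathway genes, 3 complement regulators, 2 alternative-pathway genes and 6 terminal complement components.

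RNA sequencing was done on primary mouse hepatocytes kept in culture without treatment. Alb/MDA-9 hepatocytes (3 libraries) came from heterozygous transgenic mice that carry human MDA-9/SDCBP, the scaffold protein syntenin, tagged with HA at the C-terminal end. The transgene is driven by an albumin enhancer joined to the core albumin promoter, which is active in hepatocytes. WT hepatocytes (3 libraries) came from littermates without the transgene. All mice were on the B6CBAF1 hybrid background and ate regular chow, and the ages and sexes are not in the sources used here. Parental-strain segments that the littermates do not share cannot be told apart from the transgene in this design. Whether the libraries of a group stem from different animals or cultures is not in the labels, and the p-values then reflect only how far these libraries spread, which may be technical. The tables list mouse genes, so the human transcript has no level of its own here.

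Clotting is a cascade of serine proteases circulating as inactive precursors, in which thrombin finally turns fibrinogen into fibrin. Antithrombin, protein C and tissue factor pathway inhibitor limit the cascade, and plasmin, released from plasminogen by its activators, dissolves the clot. The lectin and alternative pathways of complement converge on C3, after which C5 to C9 assemble into a pore in the target membrane. The liver is the main source of most of these proteins in plasma.

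Reads on the annotated strand numbered 16403918 to 19046739 per library. Levels are given in CPM, read counts scaled to library size with TMM factors, and 0 reads allow a level of up to 0.151 to 0.181 CPM, that of 3 reads on this scale (counting error only). Principal component 1 (55.5% of the variance) separated Alb/MDA-9 from WT, and component 2 (16.98%) set off the library Alb/MDA-9 3. Hepatocyte markers summed to 100819, 94847 and 85047 CPM in Alb/MDA-9 1 to 3 and to 80961 to 84360 CPM in WT, and 2 of 10 were higher and 0 lower (5 higher without Alb/MDA-9 3, 1 without WT 2). Without Alb itself the other 9 summed to 30649, 30931 and 29957 CPM in Alb/MDA-9 1 to 3 and to 25981 to 26912 CPM in WT. Of 9 Kupffer cell markers tested, 7 were lower. Cd68, which was not called, had 322, 284 and 137 CPM in Alb/MDA-9 1 to 3 and 262, 267 and 284 CPM in WT 1 to 3, and the other 9 summed to 43.3, 48.2 and 52.0 CPM in Alb/MDA-9 and to 97.5 to 101 CPM in WT. Cholangiocyte and mesothelial markers summed to 80.2 to 83.9 CPM in Alb/MDA-9 and to 58.5 to 66.0 CPM in WT. Of 5 tested, 2 were higher and 2 lower, and Upk3b had 0 reads. The higher count was 1 without Alb/MDA-9 2 or WT 1, and the lower count 0 with a stricter filter on low counts. Without Sox9, the highest, these markers summed to 21.6 to 27.3 CPM in Alb/MDA-9 and to 26.0 to 29.3 CPM in WT. Sums without the highest marker were added after the values were seen. In bulk RNA, fewer cells of a type and less RNA per cell cannot be told apart.

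Of the 41 genes, 6 were higher and 2 lower in Alb/MDA-9 than in WT, and 33 were not called. The threshold was an adjusted p of 0.05 in the quasi-likelihood F test of edgeR, adjusted over all tested genes. The genes that rose were F11 and F12 of the contact system, Proc (protein C), Cfi (complement factor I), C3 and C8b, and those that fell were Plat (tissue plasminogen activator) and C4bp (C4b-binding protein). The called members were 19.5% of the 41, against 14.4% of all tested genes. Higher members were 14.6%, against 7.35% of all tested genes, and lower members 4.88%, against 7.09%. The median log2 change was 0.10 over the 41 members and -0.0015 over all tested genes. It was above 0 in 26 members, or 63.4%, against 49.7% of all tested genes. Libraries of the groups did not overlap in 14 members, or 34.1%, against 33.6% of all tested genes. In 10 of these Alb/MDA-9 was higher, 24.4% of members against 17.1% of all tested genes, and in 4 it was lower, 9.76% against 16.5%. With library totals in place of TMM factors the split was 5 higher and 3 lower among the members, with Cfi lost and F5 gained as lower, and 525 higher and 1622 lower among all tested genes.

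When the test asked for a change beyond 1.5-fold, F11 alone of the members passed, while 1.81% of all tested genes did, 0.632% higher and 1.17% lower. The changes in the other 7 called members were thus not shown to exceed 1.5-fold. Without a fold limit, 7.35% of all tested genes were higher and 7.09% lower at an adjusted p of 0.05. Of 16 members that encode serine proteases, 4 were then higher (F11, F12, Proc and Cfi) and 1 was lower (Plat). Their median log2 change was 0.07. The 4 serpins, the inhibitors of such proteases, held no called gene. Of 6 members whose proteins need vitamin K, only Proc was called. These groups were drawn up with earlier results of the same libraries known.

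**Figure D1:**
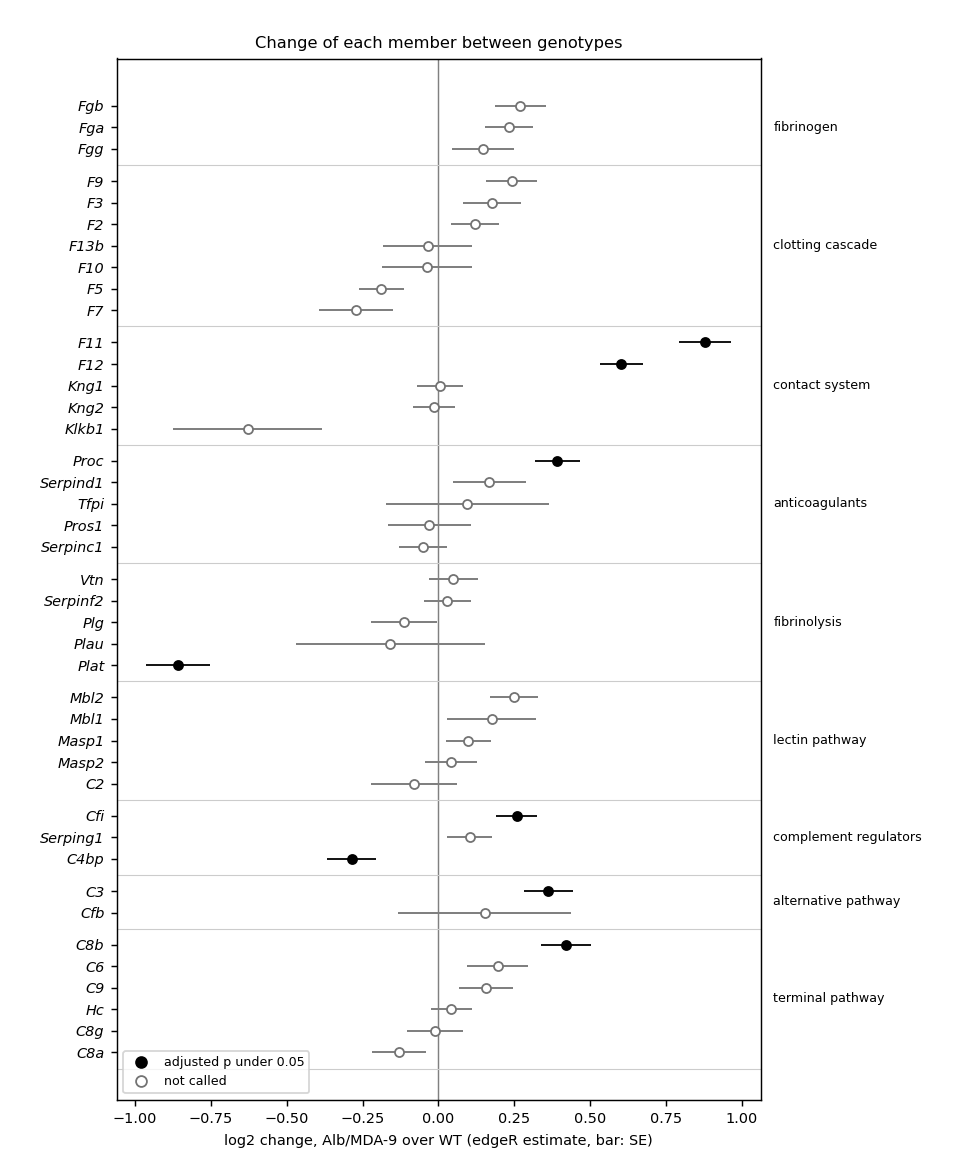
Log2 change of each of the 41 genes between Alb/MDA-9 and WT (edgeR estimate, bars SE, 3 libraries per group), grouped by role, with filled points for genes past an adjusted p of 0.05. F11 at 0.88 lies farthest above 0 and Plat at -0.86 farthest below it, while 33 genes were not called.

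Levels ranged far more widely between genes than between genotypes. Per kilobase of the principal transcript, Fgb stood highest, at 1599 CPM per kb in Alb/MDA-9 and 1326 in WT, ahead of Fga (1011 in Alb/MDA-9, 860.4 in WT) and Fgg (997 in Alb/MDA-9, 899.7 in WT). C3, the hub of complement, had 973 CPM per kb in Alb/MDA-9 and 756 in WT. At the other end, Plau, the urokinase activator, had 0.576 CPM per kb in Alb/MDA-9 and 0.642 in WT, and Klkb1, plasma prekallikrein, had 0.601 in Alb/MDA-9 and 0.933 in WT. Classes other than fibrinogen spanned a wide range of levels. Within the cascade the highest was F2, prothrombin, at 468 in Alb/MDA-9 and 431 in WT, and the lowest F7, the partner of tissue factor, at 9.34 in Alb/MDA-9 and 11.3 in WT. In the terminal pathway C9, which forms the wall of the pore, led with 389.8 in Alb/MDA-9 and 349.5 in WT, and C6 was lowest with 14.9 in Alb/MDA-9 and 13.01 in WT. These levels rest on annotated transcript lengths. That of Klkb1 is incomplete, because reads in the 43.2% of its exon bases shared with another gene are not counted.

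**Figure D2:**
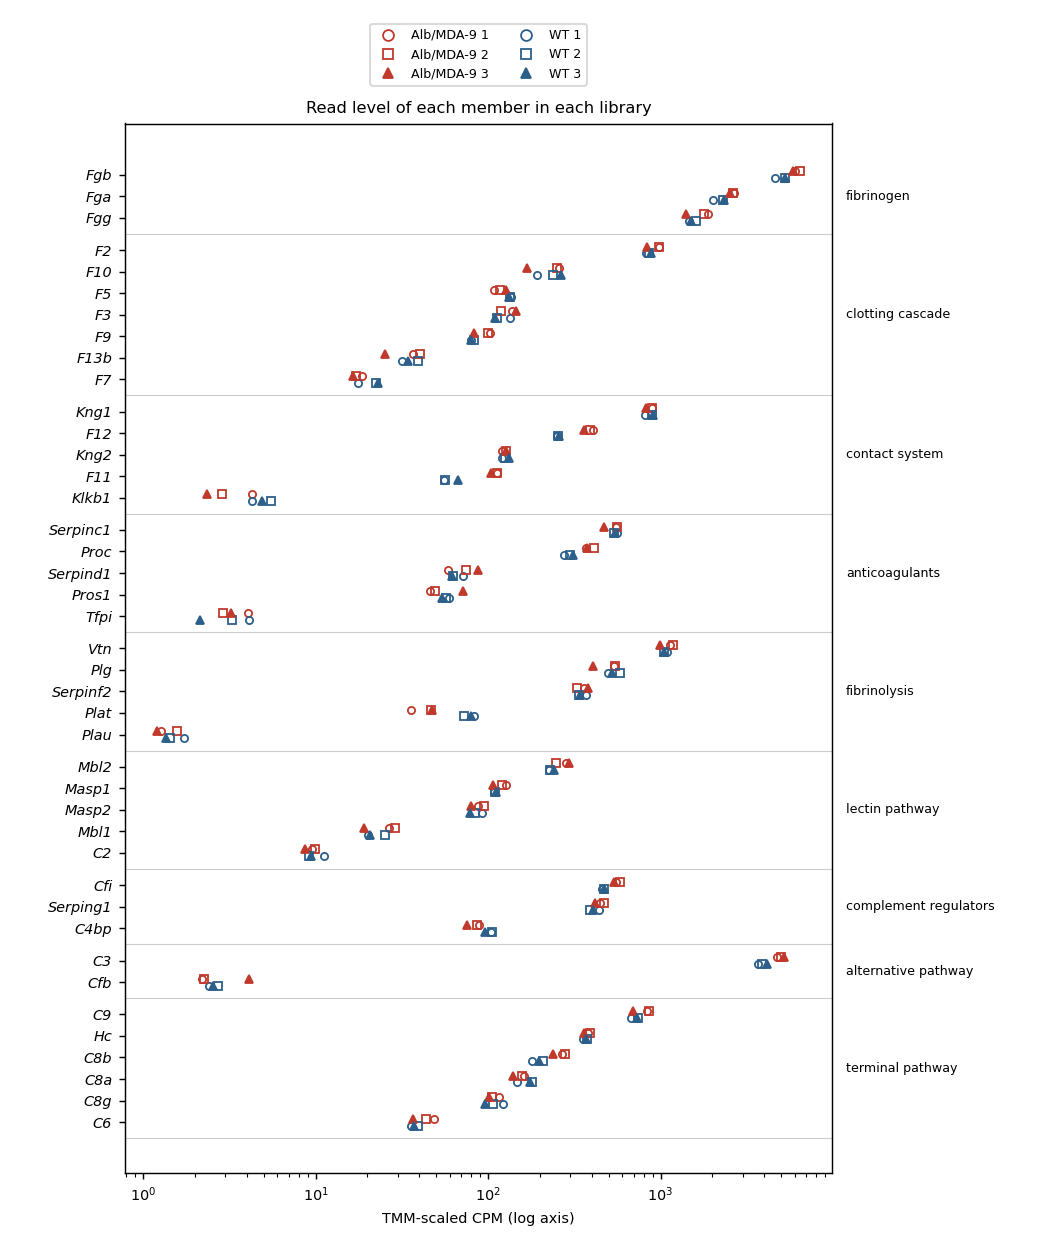
TMM-scaled CPM (log axis) of the 41 genes in each Alb/MDA-9 library (red) and each WT library (blue), grouped by role, library 3 filled. Genes span more than the genotypes do, with Fgb at 4617 to 6419 CPM and Plau at 1.20 to 1.72 CPM over the 6 libraries.

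**Figure D3:**
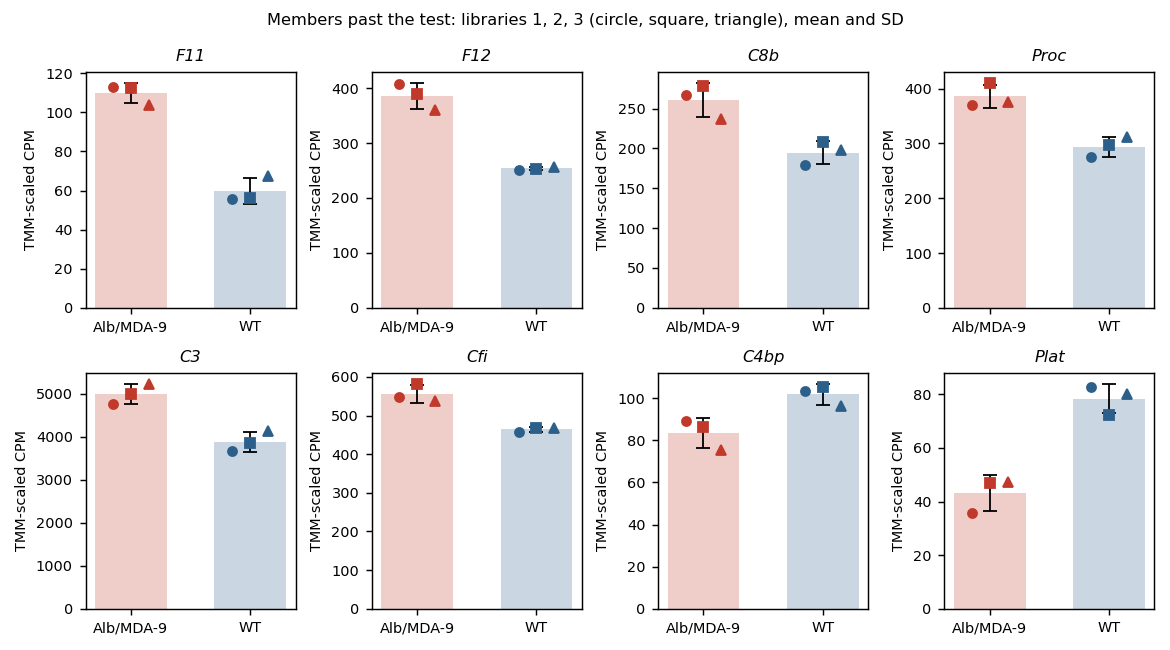
CPM of the 8 called genes in each library (points), with the mean (bars, from 0) and SD, Alb/MDA-9 left of WT. In all 8 the libraries of the groups do not overlap, F11 showing 104 to 113 CPM in Alb/MDA-9 and 55.5 to 67.3 CPM in WT.

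The fibrinogen chains lie side by side on chromosome 3, with gaps of 11026 bases between Fgg and Fga and 6513 bases between Fga and Fgb. Fgb, the beta chain, had 5999, 6419 and 5864 CPM in Alb/MDA-9 1 to 3, against 4617, 5287 and 5252 CPM in WT 1 to 3. Fga, the alpha chain, had 2659, 2641 and 2543 CPM in Alb/MDA-9, against 2025, 2308 and 2345 CPM in WT. Fgg, the gamma chain, had 1876, 1793 and 1401 CPM in Alb/MDA-9, against 1469, 1603 and 1503 CPM in WT. For Fgb and Fga every Alb/MDA-9 library stood above every WT library, and for Fgg the low value of Alb/MDA-9 3 made the groups overlap. None of the chains was called. Fgb missed narrowly, with a log2 fold change of 0.27 (SE 0.08) and an edgeR adjusted p of 0.0501, while Fga had 0.23 (SE 0.08) and 0.0745 and Fgg 0.15 (SE 0.10) and 0.375. Without Alb/MDA-9 3 all 3 chains were called higher, by 0.30, 0.25 and 0.27 on the log2 scale for Fgb, Fga and Fgg, with edgeR adjusted p of 0.0114, 0.0261 and 0.0117. Fgb and Fga were also called when genes with few reads were kept and by DESeq2. Ratios between the chains overlapped between the groups. The ratio of Fgb to Fga reads per kb was 1.53, 1.65 and 1.57 in Alb/MDA-9, against 1.55, 1.56 and 1.52 in WT, a log2 difference of 0.04 (exact two-sided permutation p = 0.4). That of Fgg to Fga was 1.077, 1.04 and 0.841 in Alb/MDA-9, against 1.11, 1.06 and 0.978 in WT (log2 difference -0.10, exact permutation p = 0.6).

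None of the 7 genes of the clotting cascade was called, and their median log2 change was -0.04. F9, factor IX, had 103, 100.05 and 83.4 CPM in Alb/MDA-9, against 80.0, 82.8 and 79.8 CPM in WT, so that the groups did not overlap. Its log2 change of 0.24 (SE 0.08) had an edgeR adjusted p of 0.0804, and without Alb/MDA-9 3 it was called at 0.33 with an adjusted p of 0.00447. F5, factor V, the cofactor of factor Xa, lay the other way, at 108, 117 and 127 CPM in Alb/MDA-9, against 135, 133 and 131 CPM in WT. Here too no library crossed to the other group, and the log2 change was -0.19 (SE 0.07, edgeR adjusted p = 0.120). F10, factor X, was uneven within Alb/MDA-9, at 257, 252 and 168 CPM, against 192, 238 and 265 CPM in WT. The remaining members were F2, F3 (tissue factor), F7 and F13b (the carrier chain of factor XIII), with log2 changes between -0.27 for F7 and 0.18 for F3. F7 and F10 are neighbours on chromosome 8, 1498 bases apart.

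The contact system held the largest rise among the members. F11, factor XI, the protease that activates factor IX (ENSMUSG00000031645, chromosome 8, 45241174 to 45262031 in GRCm38), had 113, 112 and 104 CPM in Alb/MDA-9, against 55.5, 56.3 and 67.3 CPM in WT. The means were 109.8 ± 5.17 CPM in Alb/MDA-9 and 59.7 ± 6.56 CPM in WT (SD, n = 3 each). The lowest Alb/MDA-9 library lay well above the highest WT library. This was a log2 fold change of 0.88 (SE 0.09, edgeR adjusted p = 3.5e-05), 84.0% higher in Alb/MDA-9, and F11 was called under all 15 alternative settings, at 0.77 to 0.97 on the log2 scale.

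F12, factor XII, which starts the contact pathway and activates factor XI (ENSMUSG00000021492, chromosome 13, 55417958 to 55426793), had 407, 389 and 360.4 CPM in Alb/MDA-9, against 251, 253 and 257 CPM in WT. All Alb/MDA-9 libraries were above the WT libraries, which lay close together. The means were 385 ± 23.5 CPM in Alb/MDA-9 and 254 ± 3.14 CPM in WT (SD, n = 3 each), a change of 0.60 on the log2 scale (SE 0.07, edgeR adjusted p = 0.000132). The other contact genes were not called. Klkb1, whose product and factor XII activate each other, had 4.25, 2.85 and 2.35 CPM in Alb/MDA-9, against 4.29, 5.49 and 4.91 CPM in WT, on 39 to 107 reads per library. The groups just failed to overlap, and the log2 change of -0.63 (SE 0.25) was not called (edgeR adjusted p = 0.113). Without Alb/MDA-9 1 Klkb1 was called lower, at -0.91 (edgeR adjusted p = 0.0304). Klkb1 lies 4657 bases from F11 on chromosome 8, so the estimates of direct neighbours had opposite signs. It shares 43.2% of its exon bases with Gm45753 on the same strand. Reads there fall on both genes and are not counted, so its level is incomplete. Gm45753 itself had 8 reads over all libraries.

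The kininogens supply the cofactor that binds factor XI and prekallikrein. Kng1 had 892, 896 and 828 CPM in Alb/MDA-9, against 808, 891 and 907 CPM in WT. Kng2, its neighbour on chromosome 16, had 120.2, 128 and 127 CPM in Alb/MDA-9, against 121, 125 and 132 CPM in WT. Groups overlapped in both, with log2 changes of 0.01 (SE 0.08) for Kng1 and -0.01 (SE 0.07) for Kng2. The ratio of Kng2 to Kng1 reads per kb was 0.107, 0.113 and 0.122 in Alb/MDA-9, against 0.119, 0.111 and 0.116 in WT, a log2 difference of -0.02 (exact permutation p = 0.8). Their transcripts are 91.8% identical over 1345 aligned bases. Reads that fit both genes equally well are not counted, so both levels are uncertain.

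Because F11 and F12 rose most among the contact genes, the 250 bases upstream of their starts are printed, 5′ to 3′ on the gene's strand, from the RefSeq promoter table on GRCm38.p6. The F11 window is chr8:45262032-45262281 on the minus strand. That of F12 is chr13:55426805-55427054 on the minus strand. Starts here are those of RefSeq, and the F12 start lies upstream of the GENCODE start. Capitals mark matches, on either strand, to short motifs of liver transcription factors. These were GTTAAT for an HNF1 half-site, AAAGTCCA for HNF4, TTNNGNAA for C/EBP and TTCNNNGAA for STAT proteins. The motifs were chosen after the values were seen, and a match is a description of the sequence.
F11: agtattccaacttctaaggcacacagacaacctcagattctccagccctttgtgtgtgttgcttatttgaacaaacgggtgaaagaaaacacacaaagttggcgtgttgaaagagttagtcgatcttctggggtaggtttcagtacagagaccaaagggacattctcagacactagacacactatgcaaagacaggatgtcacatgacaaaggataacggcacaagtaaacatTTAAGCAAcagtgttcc
F12: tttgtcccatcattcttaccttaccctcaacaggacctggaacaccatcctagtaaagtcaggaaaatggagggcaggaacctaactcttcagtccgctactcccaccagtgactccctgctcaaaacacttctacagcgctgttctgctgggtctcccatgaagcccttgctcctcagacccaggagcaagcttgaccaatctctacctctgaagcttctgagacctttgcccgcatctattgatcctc
F11 held 1 C/EBP match, with its first base 17 bases upstream of the start, and F12 held no match to these motifs. Of the 41 members, 31 had a window in the table. C/EBP matches occurred in 14 of these, 45.2%, against 36.8% of the 32851 windows of all genes. The HNF1 half-site match occurred in 8 (25.8% against 6.43%) and the STAT match in 6 (19.4% against 7.02%). The HNF4 letters were in 0 of the 31 member windows and in 1.01% of all windows. The 8 windows with an HNF1 half-site match belong to C4bp, C8a, C8b, F13b, Fga, Fgb, Hc and Vtn. Of these genes C8b was higher, C4bp lower and the others not called.

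Among the fibrinolysis genes, Plat fell most of all members. Plat, tissue plasminogen activator (ENSMUSG00000031538, chromosome 8, 22757727 to 22782844), had 35.6, 46.9 and 47.3 CPM in Alb/MDA-9, against 82.8, 72.2 and 80.0 CPM in WT. All Alb/MDA-9 libraries were below all WT libraries. The means were 43.3 ± 6.65 CPM in Alb/MDA-9 and 78.3 ± 5.46 CPM in WT (SD, n = 3 each), so that Plat fell by 44.8% with a change of -0.86 on the log2 scale (SE 0.11, edgeR adjusted p = 0.000210). Plat is known from endothelial cells. Endothelial markers summed to 164 to 182 CPM in Alb/MDA-9 and to 221 to 239 CPM in WT, with 4 of 10 lower and 0 higher. Stellate cell and fibroblast markers summed to 205 to 267 CPM in Alb/MDA-9 and to 304 to 322 CPM in WT, with 5 of 10 lower and 0 higher. The lower count was 2 without WT 1 or WT 3, and 3 without Alb/MDA-9 2 or WT 2 or with the replicate block. Without Reln, which was not called, the other 9 summed to 98.6 to 107 CPM in Alb/MDA-9 and to 161 to 166 CPM in WT. The part of these cells in the Plat result was not tested. Platelet markers summed to 4.15 to 5.19 CPM in Alb/MDA-9 and to 6.36 to 6.98 CPM in WT, with Ppbp, Gp1bb and Gp9 at 0 reads in all libraries.

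The other fibrinolysis genes were not called. Plg, plasminogen, had means of 495 ± 79.7 CPM in Alb/MDA-9 and 536 ± 43.8 CPM in WT (SD, n = 3 each), with Alb/MDA-9 3 lowest at 403 CPM. Serpinf2, the plasmin inhibitor, and Vtn, vitronectin, which holds the plasminogen activator inhibitor active, had log2 changes of 0.03 and 0.05. Plau had 1.20 to 1.57 CPM in Alb/MDA-9 and 1.36 to 1.72 CPM in WT.

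The anticoagulants had a single called gene. Proc, protein C, which once activated inactivates factors Va and VIIIa (ENSMUSG00000024386, chromosome 18, 32123126 to 32139570), had 371, 410.2 and 377 CPM in Alb/MDA-9, against 274, 297 and 311 CPM in WT. The groups were well separated, at 386 ± 21.1 CPM in Alb/MDA-9 and 294 ± 18.5 CPM in WT (SD, n = 3 each). This was a log2 fold change of 0.39 (SE 0.07, edgeR adjusted p = 0.00407). Pros1, protein S, the cofactor of protein C, had 45.8, 49.4 and 71.9 CPM in Alb/MDA-9, against 59.3, 56.9 and 54.3 CPM in WT. Alb/MDA-9 3 was the highest of the 6 libraries for Pros1 and the other Alb/MDA-9 libraries were the lowest. With all libraries the log2 change was -0.03, and without Alb/MDA-9 3 Pros1 was called lower, at -0.26 (edgeR adjusted p = 0.0394). Serpinc1, antithrombin, Serpind1, heparin cofactor II, and Tfpi, tissue factor pathway inhibitor, were not called, at log2 changes of -0.05, 0.17 and 0.10.

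Among complement genes 3 were higher and 1 was lower of 16, or 18.75% and 6.25%, against 7.35% and 7.09% of all tested genes. C3 (ENSMUSG00000024164, chromosome 17, 57203970 to 57228136), whose cleavage marks targets and opens the terminal pathway, had 4761, 5002 and 5223 CPM in Alb/MDA-9, against 3669, 3857 and 4128 CPM in WT. Each Alb/MDA-9 library was above each WT library, and Alb/MDA-9 3 was the highest. The means were 4995 ± 231 CPM in Alb/MDA-9 and 3884 ± 231 CPM in WT (SD, n = 3 each), a log2 fold change of 0.36 (SE 0.08, edgeR adjusted p = 0.00978). Without WT 2 the edgeR adjusted p was 0.0682. Cfb, factor B, the protease that joins C3b in the alternative convertase, was low, with 2.21, 2.27 and 4.09 CPM in Alb/MDA-9, against 2.42, 2.72 and 2.54 CPM in WT. Only Alb/MDA-9 3 stood out, and the log2 change of 0.15 (SE 0.29) was not called. Cfb shares 79.5% of its exon bases, and its neighbour C2 42.8%, with Gm20547 on the same strand. Reads in the shared bases are not counted and Gm20547 had 0 reads, so the levels of Cfb and C2 are incomplete.

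The C3 promoter window is printed because C3 had the highest level among the called members. It is chr17:57228137-57228386 on the minus strand, from the same RefSeq table on GRCm38.p6, with matches to the same motifs in capitals.
C3: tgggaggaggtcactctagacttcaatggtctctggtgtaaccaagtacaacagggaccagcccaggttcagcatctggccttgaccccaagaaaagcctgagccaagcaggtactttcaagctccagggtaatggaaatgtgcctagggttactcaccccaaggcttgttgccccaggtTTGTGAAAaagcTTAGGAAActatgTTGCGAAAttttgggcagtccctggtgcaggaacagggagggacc
The window held 3 C/EBP matches, starting 70, 58 and 45 bases upstream of the start, and the last of these read as a match on both strands. No HNF1, HNF4 or STAT letters were found in it.

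The regulators changed in both directions. Cfi, factor I, the protease that cuts C3b and C4b (ENSMUSG00000058952, chromosome 3, 129835884 to 129875332), had 549, 581 and 538 CPM in Alb/MDA-9, against 457, 468 and 469 CPM in WT. C4bp, a cofactor of factor I in cutting C4b (ENSMUSG00000026405, chromosome 1, 130634773 to 130661632), had 89.1, 86.1 and 75.2 CPM in Alb/MDA-9, against 104, 106 and 96.3 CPM in WT. Neither gene had overlapping groups, with Cfi higher and C4bp lower in every Alb/MDA-9 library. Cfi had a change of 0.26 on the log2 scale (SE 0.07, edgeR adjusted p = 0.0230) and C4bp one of -0.29 (SE 0.08, edgeR adjusted p = 0.0322). Both were the least stable calls. Cfi was lost with the replicate block (edgeR adjusted p = 0.0536), with library totals as the scale (0.135), and without Alb/MDA-9 2 (0.1103), WT 1 (0.0625), WT 2 (0.102) or WT 3 (0.0770). C4bp was lost without Alb/MDA-9 2 (edgeR adjusted p = 0.0730), Alb/MDA-9 3 (0.0567), WT 1 (0.0882) or WT 2 (0.137). Serping1, the inhibitor of C1 and of the contact proteases, had means of 443 ± 25.1 CPM in Alb/MDA-9 and 413 ± 24.6 CPM in WT (SD, n = 3 each) and was not called.

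The lectin pathway held no called gene among 5, with a median log2 change of 0.10. Mannose-binding lectins recognise sugars on microbes, and Mbl2 had 282, 246 and 294 CPM in Alb/MDA-9, against 225, 228 and 240.2 CPM in WT. Mbl1 had 26.7, 28.8 and 19.03 CPM in Alb/MDA-9, against 20.1, 25.2 and 20.6 CPM in WT. The groups did not overlap for Mbl2, whose log2 change of 0.25 (SE 0.08) missed the threshold with an edgeR adjusted p of 0.0530, and they overlapped for Mbl1 (0.18, SE 0.15). Mbl2 was called by DESeq2, with genes of few reads kept, and without Alb/MDA-9 2. Their ratio per kb, Mbl2 to Mbl1, was 15.2, 12.3 and 22.2 in Alb/MDA-9, against 15.997, 12.96 and 16.7 in WT (log2 difference 0.08, exact permutation p = 0.9). The proteases that the lectins carry, Masp1 and Masp2, and their substrate C2 had log2 changes of 0.10, 0.04 and -0.08. Masp2 overlaps Tardbp on the opposite strand over 54.9% of its exon bases, and the strand-specific counts keep them apart.

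In the terminal pathway C8b alone was called of 6 genes. C8 is built of an alpha, a beta and a gamma chain, and C8b, the beta chain (ENSMUSG00000029656, chromosome 4, 104766317 to 104804548), had 268, 278 and 237 CPM in Alb/MDA-9, against 179, 208 and 198 CPM in WT. C8a, the alpha chain, had 162, 158 and 139 CPM in Alb/MDA-9, against 147, 179 and 175 CPM in WT. C8g, the gamma chain, had 116, 105 and 101 CPM in Alb/MDA-9, against 122, 107 and 95.6 CPM in WT. The groups were apart for C8b and overlapped for C8a and C8g. C8b had a log2 fold change of 0.42 (SE 0.08, edgeR adjusted p = 0.00478), C8a -0.13 (SE 0.09, adjusted p = 0.377) and C8g -0.01 (SE 0.09, adjusted p = 0.951). The ratio of C8b to C8a reads per kb, which no scaling touches, was 2.67, 2.84 and 2.76 in Alb/MDA-9, against 1.96, 1.87 and 1.83 in WT. It was higher in each Alb/MDA-9 library than in any WT library, with a log2 difference of 0.55. The exact permutation p of 0.1 is the smallest that 3 against 3 libraries allow, and it was 0.6 after adjustment over the 6 ratios computed. The C8g to C8a ratio was 2.25, 2.09 and 2.29 in Alb/MDA-9, against 2.59, 1.88 and 1.72 in WT, with overlapping groups (exact permutation p = 0.6). All 6 terminal genes were lowest in Alb/MDA-9 3 among the Alb/MDA-9 libraries. Hc, the mouse gene of C5, C6 and C9 were not called, at log2 changes of 0.04, 0.20 and 0.16, and without Alb/MDA-9 3 C6 and C9 were called higher (0.30 and 0.25, edgeR adjusted p = 0.0250 and 0.0171).

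C8b and C8a are 11130 bases apart on chromosome 4 and run in opposite directions, with their starts at the outer ends. Their windows are printed to set neighbours side by side of which C8b changed and C8a did not pass the test. The C4bp window stands with them as that of a gene that fell. All come from the RefSeq table on GRCm38.p6, with C8b at chr4:104766067-104766316 on the plus strand. C8a is at chr4:104876399-104876648 and C4bp at chr1:130661619-130661868, both on the minus strand, and capitals again mark motif matches. Distances count from the RefSeq start, which for C4bp lies 14 bases downstream of the GENCODE start.
C8b: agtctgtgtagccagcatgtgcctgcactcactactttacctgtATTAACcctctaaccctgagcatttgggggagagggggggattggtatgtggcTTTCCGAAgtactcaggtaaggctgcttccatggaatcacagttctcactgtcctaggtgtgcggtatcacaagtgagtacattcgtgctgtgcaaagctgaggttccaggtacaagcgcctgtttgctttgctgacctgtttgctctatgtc
C8a: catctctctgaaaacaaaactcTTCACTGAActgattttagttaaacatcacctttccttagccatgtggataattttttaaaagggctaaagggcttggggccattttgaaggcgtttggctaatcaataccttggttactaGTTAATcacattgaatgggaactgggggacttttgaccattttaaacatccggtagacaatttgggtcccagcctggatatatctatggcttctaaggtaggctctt
C4bp: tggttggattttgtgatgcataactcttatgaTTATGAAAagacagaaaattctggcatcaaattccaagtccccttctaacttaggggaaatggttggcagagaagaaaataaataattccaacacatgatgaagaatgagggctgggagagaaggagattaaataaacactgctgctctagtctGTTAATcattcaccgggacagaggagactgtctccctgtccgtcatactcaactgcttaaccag
C8b held an HNF1 match 206 bases and a C/EBP match 153 bases upstream of the start. C8a held an HNF1 match at 107 and a STAT match at 228 bases upstream. C4bp held an HNF1 match at 64 and a C/EBP match at 218 bases upstream. An HNF1 half-site match was thus present in all 3 windows.

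**Figure D4:**
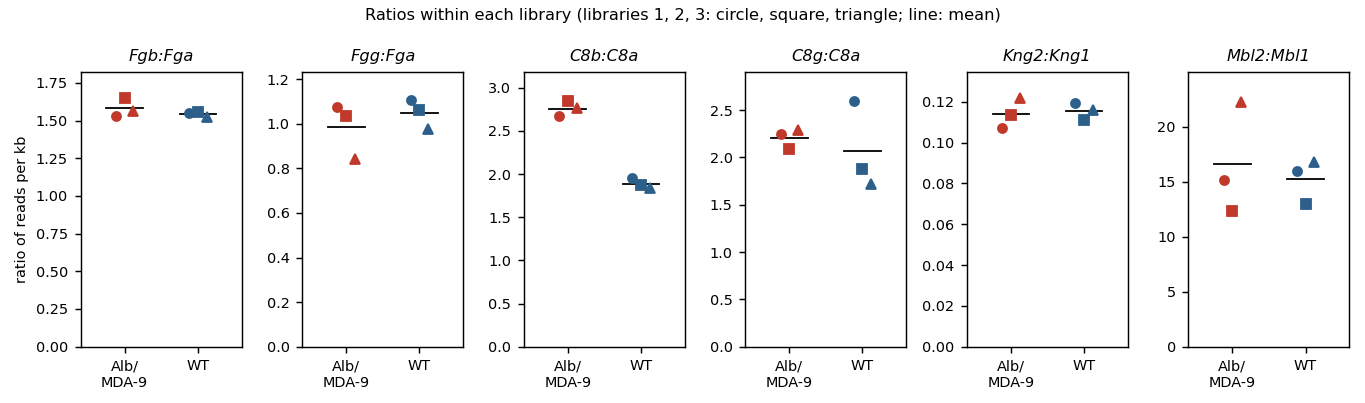
Ratio of reads per kb between subunits or paralogues within each library (points, libraries 1 to 3; lines, means), Alb/MDA-9 left of WT. C8b to C8a is the only ratio of the 6 whose groups do not overlap, at 2.67 to 2.84 in Alb/MDA-9 and 1.83 to 1.96 in WT.

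Several of these results turned on Alb/MDA-9 3. It was the lowest of the Alb/MDA-9 libraries in 29 members, or 70.7%, against 36.1% of all tested genes, and the highest in 9, or 22.0%, against 36.7%. F13b stood at 0.653, F10 at 0.660 and Klkb1 at 0.661 of the mean of Alb/MDA-9 1 and 2, and Cfb at 1.83, Pros1 at 1.51 and Serpind1 at 1.31. The same library had the lowest levels of Alb (55090 CPM, against 70170 and 63917 CPM in Alb/MDA-9 1 and 2), Cd68 and Reln in its group, while the sum of the other Kupffer cell markers was highest in it and that of the other stellate cell markers lay between those of the other Alb/MDA-9 libraries. The part of these in the results was not tested. Without it, 12 members were called higher and 3 lower, together 15. All tested genes then gave 17.4% called, 8.60% higher and 8.82% lower. The 3 lower members were Plat, F5 (-0.25, edgeR adjusted p = 0.0264) and Pros1. Of the 8 calls made with all libraries, 7 were shared and C4bp was lost.

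**Figure D5:**
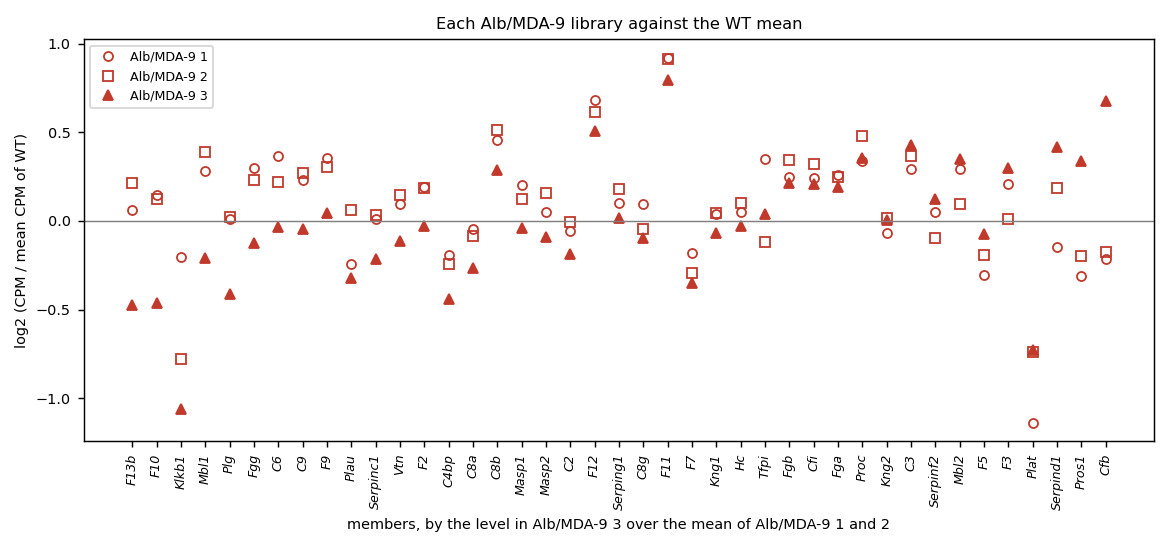
Log2 of the CPM in each Alb/MDA-9 library over the mean CPM of the WT libraries, for the 41 genes ordered by the level in Alb/MDA-9 3 over the mean of Alb/MDA-9 1 and 2. The filled triangles of Alb/MDA-9 3 lie below the other symbols in 29 genes and above them in 9.

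Genes that act with these proteins but are not among the 41 were counted from lists of receptors, activators and inhibitors. For comparison, 7.35% of all tested genes were higher and 7.09% lower. Of 13 other coagulation genes tested, 2 were higher and 1 lower, with 1 higher without Alb/MDA-9 2, Alb/MDA-9 3 or any WT library. F2rl1, a protease-activated receptor, had 27.5, 29.7 and 17.9 CPM in Alb/MDA-9, against 11.4, 11.2 and 10.3 CPM in WT (log2 change 1.19, SE 0.17, edgeR adjusted p = 0.000512). Procr, the endothelial protein C receptor, had 3.43 ± 0.960 CPM in Alb/MDA-9 and 6.86 ± 1.46 CPM in WT (SD, n = 3 each; -1.005, edgeR adjusted p = 0.0156). Its call was lost without WT 1 (edgeR adjusted p = 0.0637) or WT 2 (0.0856), and with other scaling, without the filter or with DESeq2 the lower count was 2 to 4. Of 9 other fibrinolysis genes, Plaur, the urokinase receptor, was higher, at 169 ± 22.2 CPM in Alb/MDA-9 and 104 ± 1.56 CPM in WT (SD, n = 3 each; log2 change 0.70, edgeR adjusted p = 0.000265). Serpine2, a serpin that inhibits thrombin and plasminogen activators, was lower, at 16.4 ± 2.004 CPM in Alb/MDA-9 and 23.5 ± 3.33 CPM in WT (SD, n = 3 each; -0.52, edgeR adjusted p = 0.0172), and its call was lost without Alb/MDA-9 1 (0.0563), Alb/MDA-9 2 (0.0755) or WT 1 (0.0857). Of 22 other complement genes tested, 3 were higher and 8 lower, with a median log2 change of -0.30, against 0.13 over the 16 complement members. Without Alb/MDA-9 3 there were 10 lower in place of 8. Leaving out Alb/MDA-9 1, Alb/MDA-9 2 or any WT library gave 5 lower. Among the lower genes were Cd55 (log2 change -1.47), Cpn2 (-0.71), C4a (-0.68), C1qb (-0.66), Susd4 (-0.60) and C1qc (-0.57). Cd55, Cpn2, Susd4 and C1qc lost their calls in some or all of these fits. C1s1 and C1ra, the proteases of the classical pathway, were higher, C1s1 at 237 ± 24.4 CPM in Alb/MDA-9 and 0.433 ± 0.461 CPM in WT and C1ra at 37.6 ± 1.80 CPM in Alb/MDA-9 and 9.72 ± 0.930 CPM in WT (SD, n = 3 each; edgeR adjusted p = 4.6e-10 for C1s1 and 1.6e-07 for C1ra). Both have close copies in the mouse genome, with which they were not compared here. C1s1 had 0.959, 0.103 and 0.237 CPM in WT 1 to 3, where 3 reads are 0.151, 0.154 and 0.178 CPM. Its WT mean thus rests on few reads. C4b, an isotype of C4, which C1s cleaves, was lower, at 159 ± 8.59 CPM in Alb/MDA-9 and 348 ± 3.16 CPM in WT (SD, n = 3 each; edgeR adjusted p = 5.8e-07), though its near-identical copy C4a makes the level uncertain. C2, a member whose product joins the C4b fragment of the C4 protein in the convertase, was not called.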

How the data were processed

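Each deposited table holds raw read counts per gene for 1 library, made by the authors with STAR and not normalised, with unstranded, forward-strand and reverse-strand columns, per the file headers and values. The submitters' processing notes name FastQC 0.11.2, Trim Galore 0.6.6, STAR 2.7.9a, edgeR 3.18.1, mm10 and GRCm38. The annotation release is not given in the sources used here. STAR counts only reads placed once and on 1 gene. Reads on several genes (0.791% to 0.835% of reads), unmapped reads, reads placed several times and reads outside genes entered neither library sizes nor tests.

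The reverse-strand counts were used (97.1% of stranded reads in the median library). Names and positions came from GENCODE M21. Genes passing filterByExpr at a minimum count of 10 were scaled by TMM and compared between genotypes in edgeR 4.0.16 under R 4.3.3 (quasi-likelihood F test; 4 residual degrees of freedom; Benjamini-Hochberg adjustment over all tested genes, threshold 0.05). The test was checked on simulated data. Printed CPM are TMM-scaled, and log2 changes are Alb/MDA-9 over WT. Ratios are reads per kb of the principal transcript, compared by exact two-sided permutation. Near-identical copies were sought with blastn (at least 90% identity over 200 bases).

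The members and lists were chosen with earlier results of these data known. Values in every library were given for called members, for the fibrinogen, C8, kininogen and mannose-binding lectin genes, and of other coagulation, fibrinolysis and complement genes only called ones with a log2 change of at least 0.5 were named. Genes that overlap members, and single markers that carry or are missing from a marker sum, are also named. F9, F5, F10, Klkb1, Pros1 and Cfb were given by library after their values were seen. Alternatives were other scaling factors, other filters on low counts, a test against a fold of 1.5, DESeq2 1.42.0, the unstranded counts, a replicate block and leaving out each library. Correlations of deviations between libraries of the same number were -0.0408, -8.7e-05 and -0.0619.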

Additional observations from a re-analysis of the deposited data

How the results depend on the processing

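With 3 libraries per group, a missed threshold does not show that a member did not change, and genes with few reads (Plau, Tfpi, Cfb and Klkb1) carry wide errors. F11 kept its call in all 15 alternatives. F12, Proc, Plat and C8b lost theirs only in the test against a fold of 1.5. That test called 1 member higher and 0 lower (84 and 156 of all genes). Library totals gave 525 genes higher and 1622 lower and moved the median of all genes by -0.10. Leaving out a library gave 4 to 12 members higher and 1 to 3 lower, and 503 to 1178 of all genes higher and 515 to 1208 lower, with the most higher calls without Alb/MDA-9 3 and the fewest without WT 2. A single member was lower without Alb/MDA-9 2, WT 1 or WT 2, and counts of all genes fell by over 1.5 times without the same libraries. The replicate numbers are not stated to mark pairs, and the replicate block gave 5 members higher and 2 lower.

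Among the members, changes of sign occurred in genes that were not called with all libraries. With library totals the log2 changes became -0.099 for Kng1, -0.011 for Tfpi, -0.073 for Serpinf2, -0.058 for Vtn, -0.0068 for Masp1, -0.064 for Masp2, -0.0029 for Serping1 and -0.062 for Hc. Upper-quartile factors gave -0.035 for Kng1 and -0.0099 for Serpinf2, and Kng1 was -0.0039 without the low-count filter and -0.018 with a stricter one. Leaving out a library gave ranges of -0.15 to 0.14 for F10, -0.18 to 0.14 for F13b, -0.045 to 0.040 for Kng1, -0.042 to 0.022 for Kng2, -0.26 to 0.10 for Pros1, -0.11 to 0.32 for Tfpi, -0.10 to 0.022 for Serpinc1, -0.19 to 0.014 for Plg, -0.021 to 0.086 for Serpinf2, -0.0045 to 0.12 for Vtn, -0.022 to 0.10 for Masp2, -0.14 to 0.021 for C2, -0.19 to 0.31 for Cfb and -0.092 to 0.082 for C8g. The log2 differences of ratios between the groups (Alb/MDA-9 minus WT) ranged from -0.17 to 0.012 for Fgg to Fga. They ranged from -0.067 to 0.023 for Kng2 to Kng1 and from -0.15 to 0.28 for Mbl2 to Mbl1. The cause was not tested.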
